A study of Mus musculus with 2 samples.

Results

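The cells described here carry high levels of sarcomeric actin and myosin light chain RNA but little or no RNA for the adult fast myosin heavy chains Myh1 and Myh4. They were chosen by measured values, in 2 single-cell libraries of mouse induced myogenic progenitor cells. A cell entered with at least 1000 genes detected, at most 15% mitochondrial UMIs, at least 1% of its UMIs (counted RNA molecules) from Acta1, Actc1, Myh3, Mylpf and Myl1 summed, under 0.5 Mki67 and Top2a UMIs per 10000, and under 1 Myh1 and Myh4 UMI per 10000. The rule found 224 of 13100 filtered cells, 64 of 5782 in the MyoD-KO library and 160 of 7318 in the MyoD-WT library. They are called Myh1/4-low cells below. Cells that pass the same cuts but hold at least 1 Myh1 or Myh4 UMI per 10000 are called Myh1/4-high cells (961 in KO and 784 in WT). The main comparison, within each library, is with Myog-positive cells, which have at least 2 Myog UMIs per 10000 and a 5-gene sum under 1% (865 in KO and 1046 in WT). Cells with at least 1 Pax7 UMI per 10000, no Myog UMI and a 5-gene sum under 1% (1176 in KO and 1920 in WT) serve as cells in which muscle structural RNA should be lacking.

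The libraries come from a MyoD-KO clone and a MyoD-WT clone, both with the strain label Myod1tm1Jae. In both cases embryonic fibroblasts (MEFs) had been turned into muscle progenitors by overexpressing Myf6 together with forskolin, RepSox and CHIR99021 (F/R/C), and a colony independent of Myf6 was picked and taken to passage 4. Both clones grew with 5 µM forskolin, 5 µM RepSox, 3 µM CHIR99021 and 10 ng/mL bFGF, so no group lacks these agents. The medium of both also held 10% foetal bovine serum (FBS) and 10% serum replacement (KSR). Each genotype is 1 clone and 1 library, so there is no replicate check, no test between samples was possible, and intervals cover counting error only.

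Skeletal muscle cells leave the cell cycle under the control of MyoD and myogenin, fuse, and build sarcomeres. Myosin heavy chain genes are then used in a sequence in mouse muscle, the embryonic (Myh3) and perinatal (Myh8) chains first, and the adult fast chains (Myh2, Myh1 and Myh4) later. Actin, troponin and light chain RNA is short and abundant, whereas titin, nebulin and dystrophin are made from very long genes.

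The developmental (Myh3, Myh8) and adult fast (Myh1, Myh4) myosin heavy chain genes that set these cells apart lie in a cluster on chromosome 11. Their promoters are shown with those of Acta1 and Ttn, because Acta1 was high and Ttn was not in the KO cells. Each sequence is the 250 bases before the RefSeq start in GRCm38.p6, in the direction of the gene, with E-boxes (CANNTG, the site of the MyoD family) in capitals together with the MEF2 and CArG boxes found. The windows lie upstream of the transcripts at chr11:67078050-67078299 (Myh3), chr11:67276874-67277123 (Myh8), chr11:67199852-67200101 (Myh1) and chr11:67237562-67237811 (Myh4) on the plus strand, and at chr8:123894776-123895025 (Acta1) and chr2:76982548-76982797 (Ttn) on the minus strand. An E-box on either strand is in 66.2% of the 32851 promoter windows of this length, a MEF2 box in 2.92% and a CArG box in 1.47%.
Myh3: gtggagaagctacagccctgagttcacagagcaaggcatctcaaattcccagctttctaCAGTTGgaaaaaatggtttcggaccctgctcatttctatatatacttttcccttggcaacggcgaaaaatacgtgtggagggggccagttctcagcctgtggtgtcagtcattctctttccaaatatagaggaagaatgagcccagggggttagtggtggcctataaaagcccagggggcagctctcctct
Myh8: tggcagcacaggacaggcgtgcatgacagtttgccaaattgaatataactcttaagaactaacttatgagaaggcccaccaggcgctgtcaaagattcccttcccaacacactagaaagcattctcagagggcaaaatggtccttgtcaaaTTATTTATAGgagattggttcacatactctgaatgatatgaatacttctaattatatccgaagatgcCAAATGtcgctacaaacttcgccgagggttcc
Myh1: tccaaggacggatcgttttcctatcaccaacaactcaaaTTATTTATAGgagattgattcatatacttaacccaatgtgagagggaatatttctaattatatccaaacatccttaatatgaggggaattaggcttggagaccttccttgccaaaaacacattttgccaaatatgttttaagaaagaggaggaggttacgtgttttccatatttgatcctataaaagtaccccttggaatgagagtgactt
Myh4: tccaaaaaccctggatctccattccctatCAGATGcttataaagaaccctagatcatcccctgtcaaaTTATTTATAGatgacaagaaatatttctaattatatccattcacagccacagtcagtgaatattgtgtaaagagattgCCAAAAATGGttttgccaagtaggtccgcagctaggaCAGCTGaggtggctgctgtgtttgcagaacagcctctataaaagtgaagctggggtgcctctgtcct
Acta1: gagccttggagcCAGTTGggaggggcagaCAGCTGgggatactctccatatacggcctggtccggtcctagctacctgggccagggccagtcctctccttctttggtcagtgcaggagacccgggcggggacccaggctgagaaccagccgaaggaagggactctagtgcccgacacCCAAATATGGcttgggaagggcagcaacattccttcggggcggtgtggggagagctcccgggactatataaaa
Ttn: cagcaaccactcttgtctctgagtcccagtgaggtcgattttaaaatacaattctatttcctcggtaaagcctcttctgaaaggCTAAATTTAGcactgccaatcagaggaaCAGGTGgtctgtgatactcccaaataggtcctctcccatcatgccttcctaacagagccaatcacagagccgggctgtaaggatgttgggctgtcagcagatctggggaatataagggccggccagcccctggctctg
Myh3 held 1 E-box in this window, Myh8 and Ttn 1 E-box and 1 MEF2 box each, Myh4 2 E-boxes, 1 MEF2 and 1 CArG box, Acta1 2 E-boxes and 1 CArG box, and Myh1 1 MEF2 box and no E-box. These matches are descriptions of the letters and not binding sites.

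The files hold 7670 KO barcodes with 282739488 UMIs and 8191 WT barcodes with 285232252 UMIs, a median of 37369 and 34170 UMIs per barcode. The filters removed 1888 KO and 873 WT barcodes, and 311 of the removed KO barcodes (16.5%) and 85 of the removed WT barcodes (9.74%) met the rest of the rule. The libraries share 14 barcodes, of which 0 are among the KO and 2 among the WT Myh1/4-low cells. Scrublet called 2.49% of the KO cells doublets but 0.0273% of the WT cells, too few to be relied on there, and no cell was removed for its score. The top 6% of scores per library held 0 KO and 2 WT Myh1/4-low cells.

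Myod1, the targeted gene, was at 51.8 CPM in KO Myh1/4-low cells (23 UMIs, 95% interval 32.9 to 77.8) and 142 CPM in WT Myh1/4-low cells (132 to 154), where CPM are the UMIs of a gene summed over the cells of a class and scaled to a class total of 1000000. KO Myog-positive cells had 91.0 CPM of it and WT ones 288 CPM. It was thus lower in the library labelled KO but not at 0. The extent of the deletion is not given in the labels, and tags from the 3' end that lie outside it would not check the genotype.

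The Myh1/4-low cells were 1.11% (0.853% to 1.41%) of the filtered KO cells and 2.19% (1.86% to 2.55%) of the filtered WT cells (exact Clopper-Pearson intervals). Of all cells past the 5-gene cut and under the Mki67 and Top2a cut, they were 6.24% (4.84% to 7.90%) in KO and 16.9% (14.6% to 19.5%) in WT. Both shares moved with the depth of the cells. With at least 20000 UMIs, 4 of 776 such cells in KO (0.515%, 0.141% to 1.31%) and 114 of 838 in WT (13.6%, 11.4% to 16.1%) were Myh1/4-low. Under 20000 UMIs the shares were 24.1% in KO (60 of 249) and 43.4% in WT (46 of 106). The order of the libraries in the share of filtered cells depends on the cut. Of the Myh1/4-low cells, 57 of 64 in KO (89.1%) and 58 of 160 in WT (36.3%) had no Myh1 or Myh4 UMI at all. Counting only these put KO above WT, at 0.986% of filtered cells against 0.793%. So did keeping all deposited barcodes (4.89% against 2.99%) and taking only cells under 20000 UMIs (15.04% against 11.9%). As a share of the cells past the 5-gene and Mki67/Top2a cuts, KO stayed below WT in these settings. The values were 5.56% against 6.14% with no such UMI, 16.0% against 20.9% with all barcodes and 24.1% against 43.4% under 20000 UMIs. Cells past both cuts were 17.7% of filtered KO cells and 12.9% of filtered WT cells.

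Since 1 UMI can lift a shallow cell past the cut, the deep cells were also thinned to 5000 UMIs each. No Myh1 or Myh4 UMI was then left in 17 of 776 KO cells (2.19%) and 208 of 838 WT cells (24.8%) past the 5-gene cut. Pax7-positive cells, which should lack these RNAs, had none in 85.8% of KO and 97.1% of WT cells. A count of 0 after thinning is not absence, since at full depth 0 of 776 deep KO cells and 19 of 838 deep WT cells had no Myh1 or Myh4 UMI, and thinning to 2000 UMIs left none in 5.93% of deep KO and 48.7% of deep WT cells. The share is set by the thinning depth, and it was lower in KO than in WT at both. The Myh1/4-high cells also differed, with a median of 24.9 Myh1 and Myh4 UMIs per 10000 in KO and 4.22 in WT. The WT cut at 1 per 10000 therefore runs close to the bulk of its Myh1/4-high cells, and the KO cut does not.

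**Figure D1:**
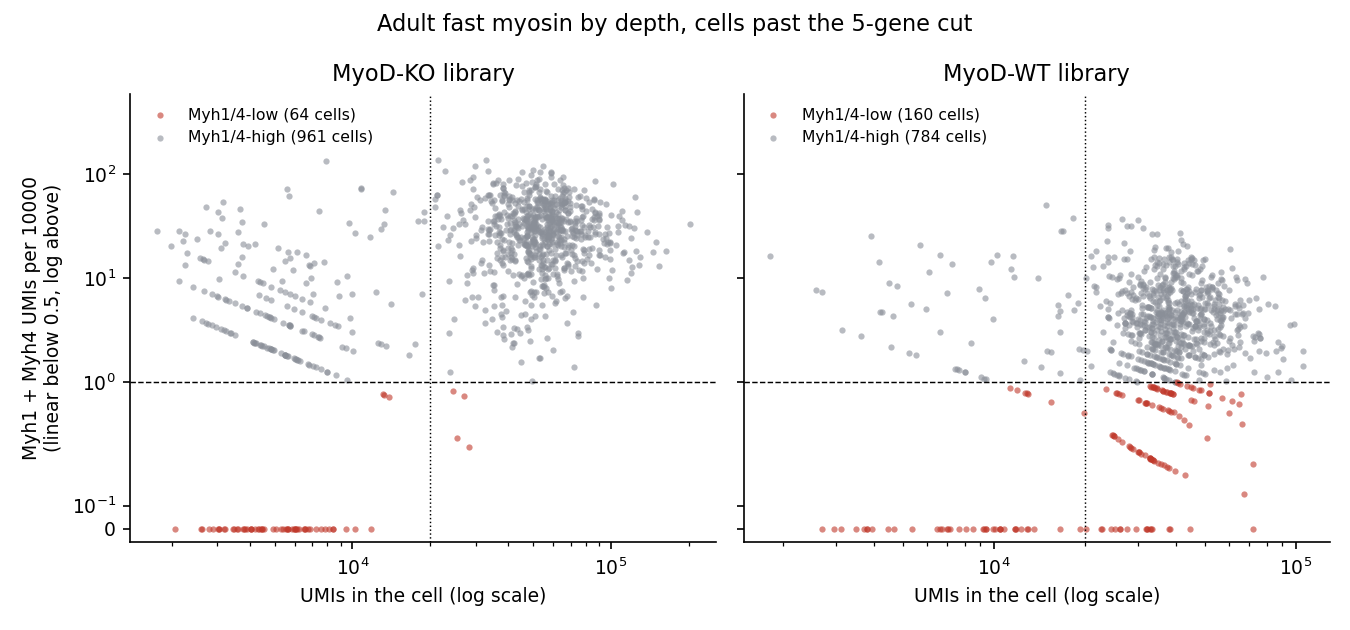
Myh1 and Myh4 UMIs per 10000 (log axis, linear below 0.5 so that 0 can be shown) against UMIs per cell (log axis) for each cell past the 5-gene and Mki67/Top2a cuts, MyoD-KO on the left and MyoD-WT on the right, with the cuts at 1 per 10000 and 20000 UMIs drawn as lines. Below the cut lie 64 KO cells, 60 of them under 20000 UMIs, and 160 WT cells, 114 of them with at least 20000 UMIs.

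Cells near the cuts were few in KO and many in WT. Between 0.75 and 1 Myh1 and Myh4 UMI per 10000, just inside the rule, lay 3 KO and 41 WT cells, and 3 KO and 37 WT cells lay just outside it, up to 1.25 per 10000. In WT the cells just inside had 2419 CPM of Myh3 and 5018 CPM of Ttn, and those just outside 1758 and 4814 CPM. For the 5-gene sum, 3 KO and 11 WT cells lay just inside, from 1 to 1.25%, and 4 KO and 19 WT cells just outside, from 0.75 to 1%. The WT cells just inside had 1281 CPM of Myog and 1451 CPM of Myh3, and those just outside 1245 and 586 CPM.

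The cells fell into a shallow and a deep range that differed in more than depth. In KO, the Myh1/4-low cells had a median of 5434 UMIs and 1276 genes, with 0.697% mitochondrial UMIs, and 29 of the 64 were under 5000 UMIs. In WT, the 114 deep cells had a median of 34424 UMIs and 7.78% mitochondrial UMIs, and the 46 shallow cells 9416 UMIs and 0.174%. The shallow cells of both clones thus had very low mitochondrial shares. Under 2% mitochondrial UMIs were 50 of 60 shallow KO cells (83.3%), 43 of 46 shallow WT cells (93.5%) and 4 of 114 deep WT cells. For comparison, the median share was 7.92% in KO and 6.68% in WT Myog-positive cells, whose median depths were 42522 and 35552 UMIs. The KO median depth lies under the library's median of 40929.5 UMIs divided by 3, and because of this split the WT counts are also given for deep cells alone. Myh1/4-high cells had median depths of 49240 UMIs in KO and 37932 UMIs in WT. Those under 20000 UMIs had low mitochondrial shares too, with medians of 0.766% in KO and 0.983% in WT, so low shares were found on both sides of the Myh1 and Myh4 cut. Myog-positive cells under 20000 UMIs had a median share of 1.10% in KO (36 cells) and 4.71% in WT (50 cells). Comparisons with both classes under 20000 UMIs are therefore not matched for this share, least of all in WT.

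**Figure D2:**
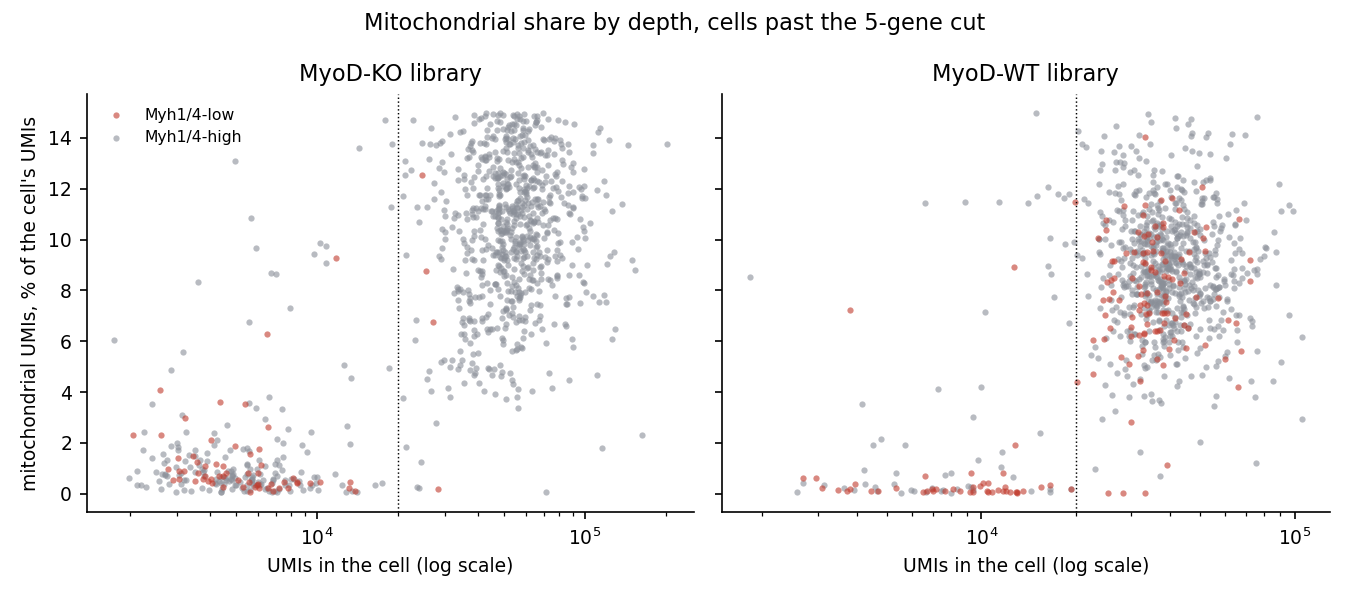
Mitochondrial share of UMIs (percent) against UMIs per cell (log axis) for each Myh1/4-low (red) and Myh1/4-high (grey) cell, MyoD-KO on the left and MyoD-WT on the right, with a line at 20000 UMIs. The Myh1/4-low KO cells and shallow WT cells lie mostly under 2%, and the deep WT cells around a median of 7.78%.

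All 4 genes that mark differentiated muscle here were at least 2-fold higher in WT Myh1/4-low than in WT Myog-positive cells, and in KO all but Ttn were. Acta1, skeletal muscle actin (ENSMUSG00000031972), was at 20997 CPM (95% interval 20572 to 21427) in KO Myh1/4-low and 304 CPM in KO Myog-positive cells, and at 6867 CPM (95% interval 6792 to 6943) and 221 CPM in the same WT classes. Mylpf, the fast regulatory light chain (ENSMUSG00000030672), was at 14879 and 460.1 CPM in KO and 9180.3 and 701 CPM in WT. These 2 belong to the rule, so their height is given by the choice of cells. Embryonic myosin Myh3 (ENSMUSG00000020908), also in the rule, was at 273 CPM (95% interval 226 to 326) in KO Myh1/4-low and 46.1 CPM in KO Myog-positive cells, and at 2220.1 CPM (95% interval 2178 to 2263) and 143 CPM in WT. KO Myh1/4-high cells had 3188 CPM of Myh3 and WT Myh1/4-high cells 2557 CPM, so the KO Myh1/4-low cells stood far below the Myh1/4-high cells of both clones. Titin, Ttn (ENSMUSG00000051747), which the rule did not use, was at 223 CPM (95% interval 181 to 272) in KO Myh1/4-low against 252 CPM in KO Myog-positive cells, and at 4948 CPM (95% interval 4885 to 5013) in WT Myh1/4-low against 861 CPM in WT Myog-positive cells. Within WT, Ttn was at 5387 CPM in the deep and 595 CPM in the shallow Myh1/4-low cells, and with both classes held to cells under 20000 UMIs its WT log2 ratio was -1.16. In KO the summed level of Ttn thus goes against the label, while Myh3 was above the Myog-positive cells and far below the Myh1/4-high cells. These cells are therefore called Myh1/4-low rather than differentiated muscle.

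The share of cells with a UMI was taken after thinning, because the classes differ in depth. After thinning to 5000 UMIs, which left out 29 KO and 10 WT Myh1/4-low cells, Ttn was detected in 60% of KO Myh1/4-low cells, 31.3% of KO Myog-positive, 96.3% of KO Myh1/4-high and 13.8% of KO Pax7-positive cells. In WT the shares were 88%, 76.2%, 99.4% and 22.2% in the same classes. Myh3 was detected in 48.6% of KO and 95.3% of WT Myh1/4-low cells, against 10.8% and 7.07% of Pax7-positive cells, whose median depths were 37386 and 35418 UMIs before thinning. Both RNAs were thus detected more often in the Myh1/4-low cells of either clone than in cells that should lack them. Myh3 is part of the sum used by the rule, and the Pax7-positive cells had to lie under the cut on that sum. The order of Myh3 was therefore favoured by the choice of cells. The rule did not use Ttn. For Ttn in KO the share was higher in Myh1/4-low than in Myog-positive cells, but the summed level was not. Its ratio was 0.885 (0.718 to 1.08), with 1 in the interval, so no order between these 2 classes is read from the share. The values rest on 35 of 64 KO and 150 of 160 WT cells.

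**Figure D3:**
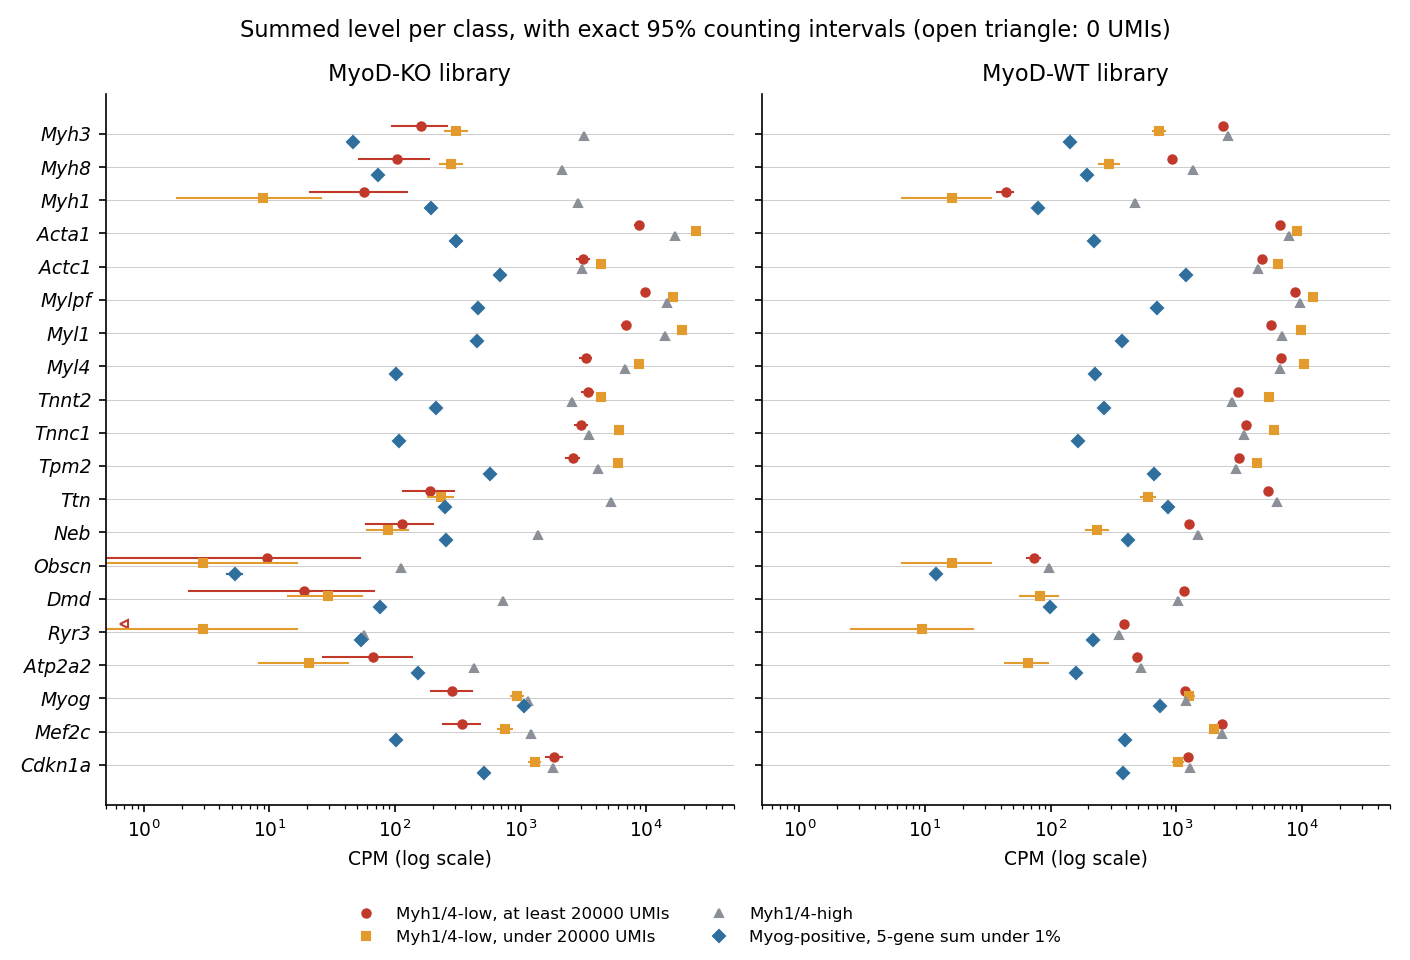
Levels of muscle genes (CPM, log axis) in Myh1/4-low cells of at least and under 20000 UMIs, Myh1/4-high cells and Myog-positive cells of MyoD-KO (left) and MyoD-WT (right), with exact 95% counting intervals as bars and an open triangle for 0 UMIs. The KO Myh1/4-low cells stand with the Myh1/4-high cells for the short contractile RNAs and with the Myog-positive cells for Ttn, at 233 CPM under 20000 UMIs, whereas deep WT cells stand with the Myh1/4-high cells for both.

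Markers of other cell types, apart from smooth muscle, were mostly low. The smooth muscle list summed to 2078 CPM in KO Myh1/4-low against 518 CPM in Myog-positive cells, and to 3123 against 1089 CPM in WT. Acta2, an actin also made in developing skeletal muscle, gave most of it, at 1907 and 2887 CPM in the Myh1/4-low cells of KO and WT. Against Myh1/4-high cells, 3 of 3 members tested were higher in KO, beside 2.21% of all genes, and 0 of 2 in WT. With both KO classes under 20000 UMIs, 1 of 3 was higher. The fibroblast list summed to 96.9 against 190.3 CPM in KO and 12.2 against 34.7 CPM in WT. A single deep KO Myh1/4-low cell held 31 UMIs of Col3a1, a member of this list. The tendon list summed to 29.3 against 43.8 CPM in KO and 4.08 against 9.88 CPM in WT. Lists of the remaining cell types stayed low. Cartilage and bone markers summed to 2.25 and 10.3 CPM, neural and Schwann markers to 9.02 and 5.79 CPM and adipocyte markers to 6.76 and 0.215 CPM in the KO and WT Myh1/4-low cells. Endothelial markers summed to 0 and 0.429 CPM, immune markers to 0 and 1.07 CPM, and cardiac markers to 0 and 16.3 CPM in the same cells. The part of the fibroblast and smooth muscle RNA in the results below was not tested.

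In KO, 632 of 8342 genes (7.58%) were at least 2-fold higher in Myh1/4-low than in Myog-positive cells, and 4415 (52.9%) at least 2-fold lower, where the higher class had to reach 10 CPM. In WT, 848 of 7961 (10.7%) were higher and 2105 (26.4%) lower, and with deep WT cells alone 897 of 7982 were higher and 1958 lower. The shallow WT cells, set against all WT Myog-positive cells, gave 521 higher and 4264 lower of 7691, nearer to KO. The 95% interval of the ratio left out 1 for 587 of the 632 and 3827 of the 4415 KO genes and for all such WT genes, and 10 CPM in the KO cells stand for 4.44 UMIs. Lower genes outnumbered higher ones in both libraries on this scale, a share of each class total, and most in KO. TMM scaling, which centres the bulk of genes, moved all log2 ratios by 0.68 in KO and 0.28 in WT and put 36.2% instead of 12.5% of the KO calls and 44.5% instead of 28.7% of the WT calls on the higher side. The median gene was at -1.12 on the log2 scale in KO and -0.44 in WT, and list medians below are read beside these. A KO ratio between 0 and -0.68 on the log2 scale turns positive under TMM scaling, as it does for Ttn (-0.18). Of the higher genes, 309 were shared, 48.9% of the KO and 36.4% of the WT set, and 1672 of the lower ones, 37.9% and 79.4%. The calls in opposite directions were 117 genes lower in KO and higher in WT, and 5 the other way.

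Among the genes higher in both libraries, the 10 with the largest ratios of the weaker library were Myl4, Acta1, Mustn1, Adprhl1, Myoz2, Fabp3, Csrp3, Cav3, Rxrg and Tceal7. Myl4, the essential light chain of embryonic muscle and the atrium, was at 7427 against 102 CPM in KO and 7129 against 227 CPM in WT, ratios of 73.1 (69.8 to 76.6) and 31.4 (30.7 to 32.1). Csrp3, the muscle LIM protein of the Z-disc, was at 338 against 6.21 CPM and 220.2 against 7.83 CPM. Myoz2, which anchors calcineurin to the Z-disc, was at 489 against 5.16 and 661 against 23.3 CPM. All 3 code for proteins of the sarcomere. Fabp3, a carrier of fatty acids, was at 275 against 4.12 CPM and 139.9 against 4.95 CPM, and the caveolin of muscle, Cav3, at 338 against 12.5 and 693 against 26.3 CPM. Rxrg, a retinoid X receptor, was at 63.1 against 1.22 CPM in KO and 70.8 against 2.90 CPM in WT. The log2 ratios of Mustn1 were 5.93 in KO and 4.97 in WT, those of Adprhl1 5.14 and 4.86, and those of Tceal7 7.197 and 4.58.

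The 10 lowest by the same reading were the cell cycle genes Top2a, Cenpf, H1f5, Ube2c, Nusap1, Pclaf, Prc1, H2ac24, Atad2 and Birc5. Top2a, which unlinks DNA in dividing cells, and Mki67 were part of the rule, so their loss was fixed by it. Cenpf, a kinetochore protein, had 2 and 20 UMIs (4.51 and 4.29 CPM) in the Myh1/4-low cells of KO and WT, against 148 and 167 CPM in Myog-positive cells. Pclaf, a partner of the replication clamp, was at 9.02 and 7.94 against 195 and 224 CPM. The rest of both cell cycle lists went the same way. Of 25 S phase genes tested, 23 were lower in KO and 25 in WT. Of 23 G2M genes other than Mki67 and Top2a, 23 were lower in KO and 23 in WT, with 0 higher in either list. Over all genes 52.9% were lower in KO and 26.4% in WT. In the Myog-positive cells, by contrast, the S phase list summed to 1495 CPM in KO and 1482 CPM in WT, against 137 and 213 CPM in Myh1/4-low cells. The part of these lists that follows from the Mki67 and Top2a cut was not tested. Restricting the Myog-positive cells to the same cut moved the WT count of lower genes to 1395, against 2105 without it. It also turned the WT log2 ratio of Prc1 to 0.38.

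Cdkn1a and Cdkn1c, inhibitors that act at cell cycle exit, went apart in KO. The inhibitor Cdkn1a (p21) was at 1425 against 509.5 CPM in KO, a ratio of 2.80 (2.58 to 3.03), and at 1215 against 376 CPM in WT, 3.23 (3.14 to 3.33). Cdkn1c (p57) was at 2331 against 6628 CPM in KO and 2480.02 against 2039 CPM in WT. It was therefore lower in the KO and slightly higher in the WT Myh1/4-low cells, and within the KO library its highest level of these classes was in the Myog-positive cells. Over the cell cycle exit list, 4 of 17 members were higher and 10 lower in KO, and 4 of 16 higher and 2 lower in WT. Over all genes 7.58% were higher and 52.9% lower in KO, and 10.7% and 26.4% in WT. The share of the list that was lower in KO is near that of all genes.

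Among the myosin heavy chains, each member tested stood below the Myh1/4-high level in KO, and in WT the adult fast members that defined the cells were the ones past 2-fold. Leaving out Myh1, Myh3 and Myh4, which the rule used, all 4 members tested against Myh1/4-high cells were lower in KO, beside 37.9% of all genes. The perinatal chain Myh8 was at 239 CPM (95% interval 196 to 289) in KO Myh1/4-low cells, against 73.8 CPM in Myog-positive and 2123 CPM in Myh1/4-high cells. In WT it was at 866 CPM (95% interval 839 to 893), against 196 and 1359.5 CPM. The slow chain Myh7 was at 15.8, 2.80 and 157 CPM in the Myh1/4-low, Myog-positive and Myh1/4-high cells of KO and 206, 7.03 and 250.03 CPM in those of WT. Summed over the class, the ratios to Myh1/4-high cells of Myh3, Myh8 and Myh7 were 0.0855 (0.071 to 0.102), 0.113 (0.0921 to 0.136) and 0.101 (0.0405 to 0.208) in KO, and nearer to 1 in WT, at 0.868 (0.851 to 0.886), 0.637 (0.617 to 0.658) and 0.825 (0.771 to 0.882). The nearness held for the deep WT cells and not for the shallow ones. With both classes under 20000 UMIs, the ratio of Myh3 was 0.317 (0.257 to 0.388) in KO and 0.255 (0.226 to 0.288) in WT, and that of Myh8 0.247 (0.199 to 0.305) in KO and 0.119 (0.0986 to 0.143) in WT. The heavy chain list summed to 1125 against 6558 CPM in shallow and 3635 against 4775 CPM in deep WT cells. The chains of the rule were at 20.3 CPM (Myh1) and 0 CPM (Myh4, 0 UMIs) in KO Myh1/4-low cells and at 41.2 and 6.22 CPM in WT ones, against 2866, 318, 469 and 82.9 CPM in the Myh1/4-high cells. Myh2, the IIa chain, which the rule left free, was at 6.76 and 34.3 CPM in the Myh1/4-low cells of KO and WT, and at 103 and 53.7 CPM in the Myh1/4-high cells. Of the heavy chain list, 3 of 4 tested were higher and 1 lower than in Myog-positive cells in KO, and 6 of 7 higher and 0 lower in WT. Without the rule genes 2 of 2 were higher in KO and 5 of 5 in WT.

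The troponins went one way in both libraries, and most light chains with them. Of the myosin light chains 4 of 5 were higher in KO and 5 of 5 in WT, with 0 lower in either. Mylpf and Myl1 were in the rule, and without them 2 of 3 were higher in KO and 3 of 3 in WT. Of the troponins all 7 tested were higher in KO and all 7 in WT. Median log2 ratios were 4.45 in KO and 3.41 in WT, beside -1.12 and -0.44 over all genes. Myl1, the fast essential light chain and a gene of the rule, was at 16263 against 453 CPM in KO and 6102 against 372 CPM in WT. Tnnt2, the troponin T of embryonic muscle and heart, was at 4116 against 213 CPM and 3302 against 267 CPM. Tnnc1, the slow and cardiac troponin C, was at 5329 against 107 CPM and 3805 against 166 CPM. Troponins of fast muscle were present too. Tnnt3, fast troponin T, was at 2259 and 1886 CPM in Myh1/4-low cells of KO and WT, 84.8 and 339 CPM in Myog-positive cells and 2229.7 and 1953 CPM in Myh1/4-high cells. The Myh1/4-low cells of both clones thus carried short contractile RNAs of fast and slow type.

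In the thin filament list, which holds actins, tropomyosins and nebulins, 10 of 15 were higher and 2 lower in KO, and 11 of 13 higher and 0 lower in WT. Without Acta1 and Actc1, which the rule used, 8 of 13 were higher in KO and 9 of 11 in WT. The KO exceptions were Neb and Nebl, whose direction depended on the setting. The KO log2 ratio of Nebl was 0.073 in cells of at least 20000 UMIs. That of Neb was 0.45 with the Myh1 and Myh4 cut at 2 per 10000, 0.62 with thinning first and 0.72 with both classes under 20000 UMIs. Neb, nebulin, which runs the length of the thin filament, was at 94.7 CPM (95% interval 68.2 to 128) against 253 CPM in KO and 1159.5 CPM (95% interval 1129 to 1191) against 409 CPM in WT. Actc1, the actin of the heart and of young skeletal muscle, was at 4109 against 688 CPM in KO and 4981 against 1199 CPM in WT. Thick filament and M-band genes were higher in 8 of 13 cases in KO and 13 of 14 in WT. Mybph, a myosin-binding protein, was at 591 against 29.4 CPM and 566 against 21.7 CPM. Of the Z-disc genes 16 of 23 were higher in KO and 20 of 23 in WT. The KO exception there was Flnc, muscle filamin, at 56.4 against 153 CPM in KO and 306 against 132 CPM in WT. With thinning first its KO log2 ratio was 0.49. Ankrd2, a stretch-responsive ankyrin-repeat protein, was at 459.8 against 4.02 CPM and 644 against 42.3 CPM, higher in both.

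Calcium handling genes went both ways in KO and, summed over deep and shallow cells, one way in WT. In KO 14 of 24 were higher and 4 lower (Atp2a2, Ryr1, Ryr3 and Cacna2d1), and in WT 21 of 26 members were higher and 0 lower. Over all genes 7.58% were higher and 52.9% lower in KO, and 10.7% and 26.4% in WT. Shallow WT cells, set against all WT Myog-positive cells, had 12 of 25 higher and 5 lower, and the list's sum was 3446 CPM in shallow KO, 3435 CPM in shallow WT and 6505 CPM in deep WT cells. Atp2a2, the SERCA2 pump that returns calcium to the store, was at 31.6 against 152 CPM in KO, a ratio of 0.207 (0.113 to 0.348), and 449 against 159 CPM in WT, 2.82 (2.68 to 2.96). The release channel Ryr1 was at 15.8 against 79.3 CPM in KO and 173 against 127 CPM in WT. Ryr3, the release channel of young muscle, had 1 UMI in KO (2.25 CPM against 54.0) and was at 349 against 218 CPM in WT. Other members did not share this split. Sln, sarcolipin, a small inhibitor of the pump, was at 83.4 against 32.9 CPM in KO and 232 against 5.34 CPM in WT. Casq2, a calcium buffer of the store, was at 51.8 against 16.6 CPM and 496 against 38.1 CPM. With both classes held to cells under 20000 UMIs, the log2 ratio of Casq2 was -0.07 in KO, and that of Atp2a2 -1.08 in WT.

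Genes of the membrane, its links and its synapse were also divided. Of the dystrophin complex 5 of 14 were higher and 7 lower in KO, and 10 of 16 higher and 2 lower in WT. Dystrophin itself, Dmd, was at 27.0 CPM (95% interval 14.0 to 47.2) from 12 UMIs against 75.7 CPM in KO, and at 1056 CPM (95% interval 1027 to 1086) against 98.4 CPM in WT. Itga7, the laminin receptor of muscle, was at 20.3 against 52.7 CPM in KO and 56.4 against 26.6 CPM in WT. Of the junction genes, those of the nerve-muscle synapse, 2 of 12 were higher and 7 lower in KO, and 7 of 12 higher and 0 lower in WT. The KO shares of both lists that were lower are near the 52.9% of all genes, and in shallow WT cells, set against all WT Myog-positive cells, 1 of 11 junction genes were higher and 4 lower. Chrng, the receptor subunit of the foetal synapse, was at 49.6 against 27.2 CPM in KO and 177 against 47.5 CPM in WT. Musk, the receptor kinase that assembles the synapse, was at 9.02 against 4.94 CPM and 52.4 against 22.2 CPM. With both classes held to cells under 20000 UMIs, the WT log2 ratios turned negative for Dmd (-2.75), Itga7 (-2.96), Chrng (-0.23) and Musk (-0.64). The KO direction of Dmd and Itga7 depended on the rule. With the Myh1 and Myh4 cut at 2 per 10000 their KO log2 ratios were 2.61 and 0.20, and with thinning first 1.81 and 0.53. A 5-gene cut of 0.5% put Dmd at 0.035.

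The fusogens stood lower in the KO than in the WT Myh1/4-low cells. The fusogen Mymk (myomaker) was at 156 CPM (95% interval 121 to 197) against 209.7 CPM in KO and 506 CPM (95% interval 486 to 527) against 146 CPM in WT, and was at 627 and 531 CPM in the Myh1/4-high cells. Its partner Mymx (myomixer) was at 151 against 112 CPM in KO and 302 against 113 CPM in WT. The KO ratio of Mymk, -0.43 on the log2 scale, lies within the TMM shift and so has no settled direction, and both fusogens were at least 2-fold higher in WT. Over the fusion list 2 of 20 were higher and 11 lower in KO, and 6 of 18 higher and 6 lower in WT. The share lower in KO is near the 52.9% of all genes. The list summed to 878 CPM in shallow KO cells, 968 CPM in shallow WT cells and 2055 CPM in deep WT cells, so the clones were close among shallow cells. Of Mymk, shallow KO cells had 159.6 CPM and shallow WT cells 216 CPM.

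Among the regulators, Myog, which drives terminal differentiation and which the rule did not require in the Myh1/4-low cells, was at 782 CPM (95% interval 702 to 869) in KO and 1174 CPM (95% interval 1143 to 1205) in WT. The Myog-positive cells, chosen by it, had 1056 and 738 CPM. At least 2 Myog UMIs per 10000 were found in 48 of 64 KO Myh1/4-low cells (75%) and 147 of 160 WT ones (91.9%). Most of these cells were thus Myog-positive as well. Mef2c, a partner of the MyoD family, was at 656 against 102 CPM in KO, 6.41 (5.67 to 7.22), and 2272 against 393 CPM in WT, 5.77 (5.63 to 5.92). Myf6, the factor used for conversion, was at 58.6 against 4.30 CPM in KO and 14.8 against 0.628 CPM in WT, where UMIs of the gene and of the vector cannot be told apart. Myf5, an early determination factor, was at 20.3 from 9 UMIs against 20.2 CPM in KO and 2.15 against 5.68 CPM in WT. Pax7, the satellite cell factor, was at 6.76 from 3 UMIs against 43.2 CPM in KO (with a 5-gene cut of 0.5% its log2 ratio there was 0.13) and 5.58 against 51.3 CPM in WT, and Pax3 had 0 UMIs in the Myh1/4-low cells of both. Progenitor genes were more often lower than higher in both clones, beside 52.9% of all genes lower in KO and 26.4% in WT. Of the satellite and progenitor list 17 of 20 were lower and 0 higher in KO, and 10 of 18 lower and 3 higher in WT. The list's sum was 374 CPM in KO Myh1/4-low cells against 1890.1 CPM in Myog-positive ones, and 1485 against 1447 CPM in WT, so the sum was lower in KO and not in WT, although shallow WT cells had 211 CPM. Of the regulators, 6 of 29 were higher and 13 lower in KO, and 9 of 27 higher and 7 lower in WT.

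Part of the energy genes were higher in both. Ckm, muscle creatine kinase, was at 1059 against 32.9 CPM in KO and 220.4 against 14.9 CPM in WT. Of the glycolysis and creatine kinase list, 10 of 23 were higher and 3 lower in KO, and 10 of 22 higher and 2 lower in WT. The list's sum in KO was 15966 against 8666 CPM and in WT 5967 against 5456 CPM. Gapdh, a member that is often used as a steady gene, was at 5658 against 2325 CPM in KO and 2195 against 2332 CPM in WT, so its share was higher in KO Myh1/4-low cells and differed by less than the TMM shift in WT ones.

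Genes of mature fibres other than the adult fast myosins were present in these cells. Of the adult fibre list, 16 of 18 were higher and 1 lower than in Myog-positive cells in KO, the lower one being Myh1, and 16 of 19 higher and 0 lower in WT. Eno3, the enolase of muscle, was at 1114 against 116 CPM in KO and 224 against 27.5 CPM in WT. Mb, the oxygen store myoglobin, was at 122 against 4.27 CPM in KO and 18.5 against 2.13 CPM in WT. Without Myh1 and Myh4, 16 of 17 were higher in KO and 16 of 18 in WT. The foetal sarcomere list, which holds Myh3, Myh8 and Myl4, had 9 of 12 higher and 2 lower in KO, and 12 of 12 higher and 0 lower in WT. Without its 2 rule genes, this list had 7 of 10 higher and 2 lower in KO and 10 of 10 higher in WT. Its sum was 27808 CPM in KO and 29869.6 CPM in WT Myh1/4-low cells, and 28064 and 28756 CPM in Myh1/4-high cells.

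Small heat shock proteins, which chaperone the sarcomere, were high in both clones. Cryab, alpha B-crystallin, was at 3279.7 against 199.7 CPM in KO and 1357 against 152 CPM in WT, and Hspb1 at 1675 against 66.1 and 478 against 85.2 CPM. Over the stress and proteostasis list, 10 of 21 were higher and 4 lower in KO, and 11 of 17 higher and 0 lower in WT. Immediate early genes were higher in 4 and lower in 8 of 16 cases in KO, and higher in 3 and lower in 1 of 9 in WT. Splicing regulators of muscle were mostly lower in KO, 11 of 13 with 2 higher (Rbfox1 and Rbm38), and divided in WT, 4 lower and 3 higher of 14. They stand beside 52.9% of all genes lower in KO and 26.4% in WT, and shallow WT cells had 10 of 13 lower. The list summed to 659 CPM in shallow KO, 902 CPM in shallow WT and 3190.3 CPM in deep WT cells, and with all barcodes the KO log2 ratio of Rbfox1 was -0.42. Mbnl1, which promotes adult splice forms, was at 27.0 against 108 CPM in KO and 52.4 against 97.98 CPM in WT. Extracellular matrix genes were lower in 10 of 20 cases in KO and 13 of 16 in WT, with 1 and 2 higher, so the KO share was near that of all genes (52.9%) and the WT share above it (26.4%). Oxidative genes were higher in 5 and lower in 2 of 20 cases in KO and higher in 4 and lower in 3 of 19 in WT. Targets of p53 were higher in 2 and lower in 5 of 13 in KO and higher in 4 and lower in 2 of 11 in WT. Growth factor genes were higher in 5 and lower in 6 of 15 in KO and higher in 4 and lower in 2 of 12 in WT. All these lists stand beside 7.58% of all genes higher and 52.9% lower in KO, and 10.7% and 26.4% in WT.

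The KO ratios moved with the genomic span of the gene. Over all genes tested in KO, the median log2 ratio of Myh1/4-low over Myog-positive cells was 0.02 for genes spanning under 5 kb. It was -0.55, -1.19, -1.73, -2.01 and -2.47 in the bins starting at 5, 20, 50, 100 and 300 kb, lower in each longer bin. In deep WT cells the same bins gave -0.14, -0.36, -0.46, -0.48, -0.40 and -0.46. The shallow WT cells, set against all WT Myog-positive cells, followed the KO course, with -0.15, -0.68, -1.28, -1.78, -2.18 and -2.66. The long-gene deficit was thus seen in the summed KO cells and in the shallow WT cells, and not in the deep WT cells. The KO sum holds 60 shallow and 4 deep cells, and the deep ones gave 105296 of its 443643 UMIs. Ttn spans 279 kb, Neb 242 kb, Dmd 2257 kb and Ryr3 586 kb, against 2.98 kb for Acta1, 5.41 kb for Mylpf and 23.99 kb for Myh3 (GENCODE M21). In shallow WT cells Ttn was at 595, Neb at 234, Dmd at 82.0 and Ryr3 at 9.37 CPM, against 5387, 1253, 1154 and 383 CPM in deep WT cells. Whether intronic UMIs were counted is not given in the sources used here. Low depth, a low mitochondrial share and low long-gene RNA moved together in these cells, and their part in the KO result was not tested.

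**Figure D4:**
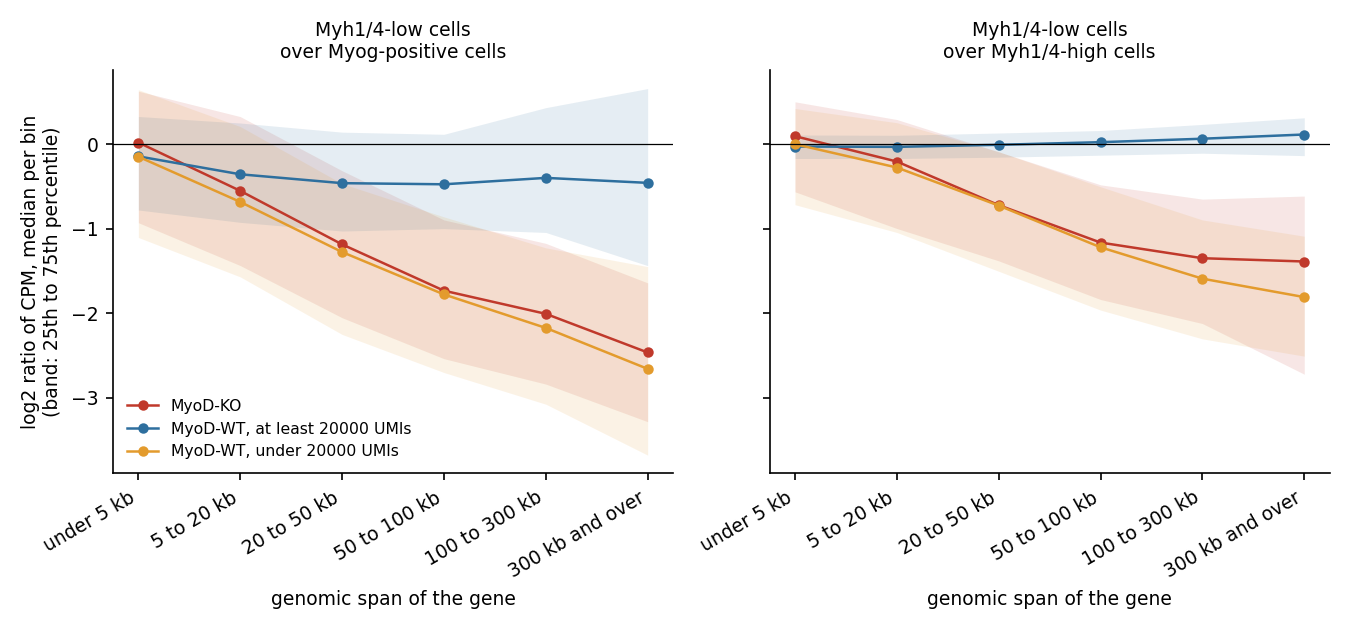
Median log2 ratio of Myh1/4-low cells against gene span (bins in kb), over Myog-positive cells (left) and over Myh1/4-high cells (right), for KO, for WT cells of at least 20000 UMIs and for WT cells under 20000 UMIs, with bands from the 25th to the 75th percentile of genes. On the left the KO and shallow WT lines reach -2.47 and -2.66 at 300 kb and over, and the deep WT line stays between -0.48 and -0.14.

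Of the genes named by the rule for this text, 16 were lower in KO and higher in WT Myh1/4-low cells by at least 2-fold each. Over all genes 117 went this way. Akap6, Fras1 and Ankrd44 were named for a low ratio of KO over WT, a choice that favours opposite directions. Ncam1, an adhesion molecule of muscle and nerve, was at 49.6 against 171 CPM in KO and 731 against 246 CPM in WT. Akap6, which anchors protein kinase A at the nuclear envelope of muscle cells, had 1 UMI in KO Myh1/4-low cells (2.25 against 34.8 CPM) and was at 201 against 89.5 CPM in WT. Dlk1, a non-canonical Notch ligand, was at 42.8 against 213 CPM in KO and 600.3 against 169.5 CPM in WT. Shallow WT cells, set against all WT Myog-positive cells, had all of the 16 genes but Fosl2 and Eda2r below 0 as in KO. Ncam1 was at a log2 of -2.01, Akap6 at -2.67 and Dmd at -0.26. Fosl2, an AP-1 factor, stayed at 0.65 and Eda2r, a receptor of the tumour necrosis factor family, at 1.15. The KO side depended on the rule as well. With the Myh1 and Myh4 cut at 2 per 10000, the KO log2 ratios of Dmd (2.61), Ncam1 (0.65), Neb (0.45) and Itga7 (0.20) were above 0. With cells thinned before the rule, those of Dmd (1.81), Akap6 (0.87), Neb (0.62), Itga7 (0.53), Flnc (0.49) and Ncam1 (0.43) were above 0. With both classes held to cells under 20000 UMIs, Neb (0.72) and Ncam1 (0.43) were above 0 in KO and at -1.10 and -2.52 in WT, where Fosl2 was at -0.79. The Myog-positive cells of that setting had a median mitochondrial share of 1.10% in KO and 4.71% in WT, so the reference differed between the libraries. The difference between libraries was not tested.

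**Figure D5:**
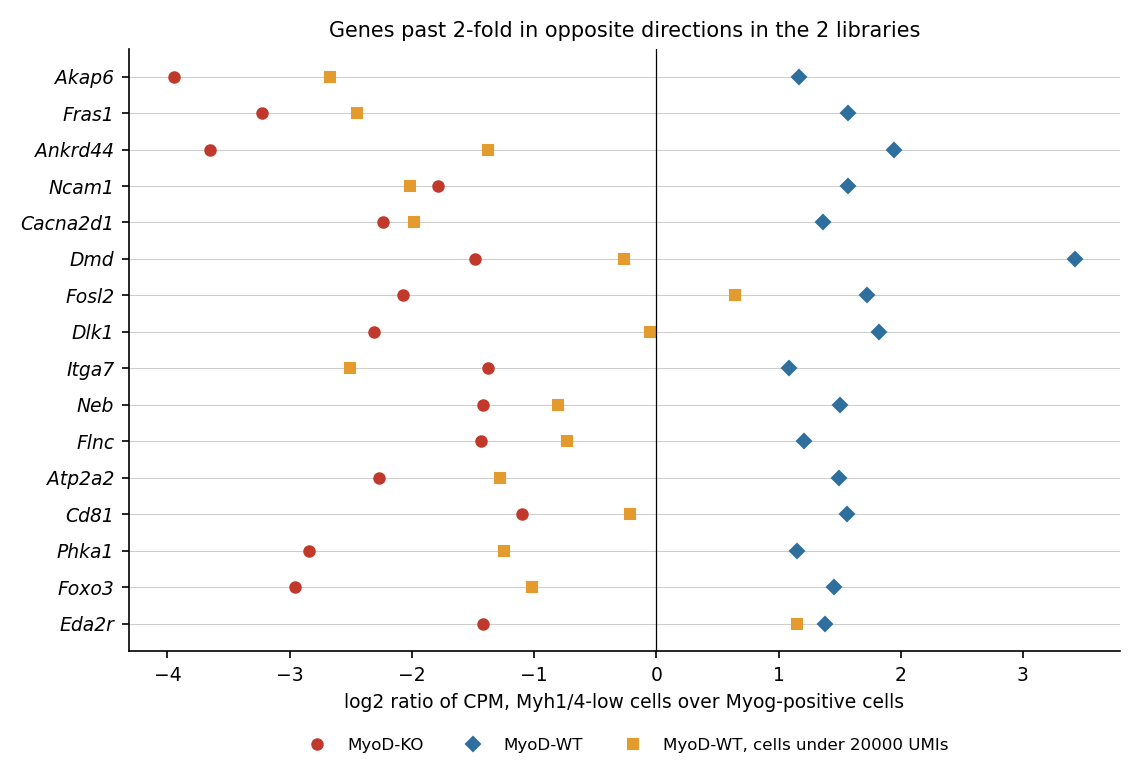
Log2 ratio of Myh1/4-low over Myog-positive cells for the 16 genes that were lower in MyoD-KO and higher in MyoD-WT, with the WT cells under 20000 UMIs as a further point per gene. KO ratios lie between -3.95 and -1.10 and WT ratios between 1.08 and 3.42.

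Between the clones, 854 of 7230 genes (11.8%) stood 2-fold or more above and 2573 (35.6%) 2-fold or more below WT in the KO Myh1/4-low cells, with a median log2 ratio of -0.49 (log2 of KO over WT). The interval left out 1 for 764 and 2000 of them, and TMM scaling moved the ratios by 0.18. Depth differs between these cells, and among cells under 20000 UMIs the counts were 1015 higher and 791 lower of 5243, with a median of 0.09, so the balance of higher and lower genes turned round. There the interval left out 1 for 469 and 294 of them. The 10 lowest named genes were Ryr3, Dlg2, Grip1, Akap6, Sorbs2, Adgrl3, Fras1, Stard13, Ankrd44 and Zfp704. Dlg2, a synaptic scaffold with a very long gene, had 1 UMI in KO against 278 CPM in WT. Sorbs2, an adaptor at the Z-disc, was at 2.25 against 164 CPM. The 10 highest were Areg, Spp1, Igfbp6, Ifitm3, Gsta4, Mgp, Col3a1, Serpinb1a, Slit2 and Lman1l. Spp1, osteopontin, was at 1445 against 9.23 CPM, but a single KO cell gave 94.4% of its UMIs. The same held for Areg, a growth factor of the EGF family (95% from 1 cell), Gsta4 (85.2%), Mgp (75%) and the collagen Col3a1 (73.8%), and these 5 are values of single cells rather than of the class. Ifitm3, an interferon-induced membrane protein, was spread over more cells, at 96.9 against 1.07 CPM with 34.9% of its KO UMIs in the top cell.

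By role, the KO cells were higher for Acta1, with a ratio of 3.06 (2.99 to 3.13), Myl1, 2.67 (2.60 to 2.74), and Ckm, 4.81 (4.30 to 5.37). Acta1 and Myl1 belong to the rule, and the KO excess of the 5-gene sum was not particular to these cells. Its median was 5.78% in KO and 3.06% in WT Myh1/4-low cells, and 5.31% and 3.23% in Myh1/4-high cells. Nor was that of Ckm. After thinning to 5000 UMIs, Ckm was detected in 85.7% of KO and 56.7% of WT Myh1/4-low cells. The shares were 89.6% and 42.7% in Myh1/4-high cells and 13.0% and 6.38% in Myog-positive cells. Glycolysis and creatine kinase genes were higher in 16 of 24 and lower in 3, a median log2 of 1.15 beside -0.49 for all genes. Among shallow cells only, 15 of 20 were higher and 0 lower, with a median of 1.49 beside 0.09. This list thus kept its direction under 20000 UMIs, where depth still differed, with medians of 5186 UMIs in KO and 9416 in WT. Against KO Myh1/4-high cells, 0 of the 25 list members tested were higher and 7 lower in KO Myh1/4-low cells. Over all genes 2.21% were higher and 37.9% lower in that comparison. Gapdh, a member, was at 6482 CPM in shallow KO and 2519 CPM in shallow WT cells, and 2162 CPM in deep WT cells. Leaving out the rule genes, all 5 myosin heavy chains tested were lower, beside 35.6% of all genes. Among cells of both clones under 20000 UMIs, 1 of 2 tested was lower, beside 15.1% of all genes. Under 20000 UMIs Myh3 was at 307 CPM in shallow KO and 729 CPM in shallow WT cells, Myh8 at 281 and 293 CPM, and Ttn at 233 and 595 CPM.

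In WT few genes differed by 2-fold between the summed Myh1/4-low and Myh1/4-high cells, of which the deep cells hold most UMIs. Of 6945 genes, 16 (0.23%) were higher by 2-fold or more and 36 (0.518%) lower, among the lower ones Myh1 and Myh4, which the rule used. With the deep cells alone the counts were 30 and 32 of 6989, and all 16 of the higher and 28 of the 36 lower genes were again past 2-fold. The shallow cells differed far more. With both classes held to cells under 20000 UMIs (46 of the 160), 163 genes were higher and 2608 lower (40.4%) of 6462. These shallow Myh1/4-low and Myh1/4-high cells also differed in mitochondrial share. Their medians were 0.174% and 0.983% and their 75th percentiles 0.373% and 8.55%, and the part of this in the counts was not tested. Requiring no Myh1 or Myh4 UMI gave 64 higher and 633 lower of 6960. Averaging over cells in place of summing gave 9 higher and 83 lower genes, which puts 9.78% instead of 30.8% of the calls on the higher side. Mstn, the secreted brake on muscle growth known as myostatin, was at 33.9 against 126 CPM, a ratio of 0.269 (0.228 to 0.316). Casq1, the calcium buffer of fast fibres, was at 80.5 against 174 CPM, and Tcap, which caps titin at the Z-disc, at 28.3 against 63.7 CPM. Pvalb, the calcium-binding parvalbumin of fast fibres, was at 9.01 against 21.6 CPM, Ampd1, the AMP deaminase of muscle, at 13.9 against 34.4 CPM, and Myoz1, a Z-disc protein of fast fibres, at 32.4 against 65.4 CPM. Myf6 was at 14.8 against 31.6 CPM, with a log2 ratio of 0.03 among cells under 20000 UMIs, and Itga4, an integrin subunit, at 73.4 against 166 CPM. Of the adult fibre list without Myh1 and Myh4, 5 of 19 were lower and 0 higher, beside 0.518% of all genes lower, and the whole list summed to 11249 against 12448 CPM. Among the higher genes were Ndrg1, a gene induced by low oxygen in many cells, at 16.1 against 3.34 CPM, a ratio of 4.83 (3.54 to 6.56), Ero1a, an oxidase of the endoplasmic reticulum, at 21.7 against 10.4 CPM, Bhlhe40, a transcriptional repressor, at 13.7 against 6.54 CPM, and Tnfaip8 at 29.4 against 8.84 CPM. Fgf21, a hormone that stressed muscle secretes, was at 24.3 against 11.98 CPM, and the most enriched was Pcsk1n, at 21.2 against 4.37 CPM, a ratio of 4.86 (3.71 to 6.35). The highest cell gave 7.30 to 33.9% of the UMIs of a higher gene. Apart from Mstn, Casq1, Itga4 and genes of the fixed lists, these genes were chosen after their values were seen.

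In KO the same comparison gave 164 higher (2.21%) and 2811 lower genes (37.9%) of 7414, with a median log2 of -0.65. TMM scaling moved the ratios by 0.35 and put 22.4% instead of 5.51% of the calls on the higher side. By gene span the KO medians were 0.09, -0.21, -0.72, -1.17, -1.35 and -1.39 in the same bins. With both classes under 20000 UMIs they were -0.09, -0.23, -0.38, -0.65, -0.82 and -1.04 in KO, and those of shallow WT Myh1/4-low against shallow WT Myh1/4-high cells -0.00, -0.28, -0.73, -1.22, -1.59 and -1.81. The short contractile RNAs were at least as high as in Myh1/4-high cells, with ratios of 1.23 (1.21 to 1.26) for Acta1, 1.02 (0.999 to 1.05) for Mylpf and 1.60 (1.52 to 1.67) for Tnnt2. The long ones were far lower, with 0.0429 (0.0349 to 0.0523) for Ttn, 0.0685 (0.0494 to 0.0927) for Neb and 0.0371 (0.0192 to 0.0649) for Dmd. With both classes under 20000 UMIs these were 0.161 (0.127 to 0.202), 0.205 (0.137 to 0.296) and 0.165 (0.0781 to 0.31). Myog was at 782 against 1137 CPM. Mstn was at 20.3 against 81.6 CPM, lower as in WT, but with both classes under 20000 UMIs the ratios were 0.659 (0.225 to 1.60) in KO and 0.872 (0.401 to 1.83) in WT, both with 1 in the interval.

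The genes with the same direction against Myh1/4-high cells in both clones, by the size of the weaker library, were Mif, Fam162a, Gamt, Eif4ebp1, Mt1 and Ccdc58 on the higher side and Myh1, Myh4, Mstn, Scd1, Itga4 and Casq1 on the lower. Mif, a cytokine with a role in inflammation, was at 2261 against 1195 CPM in KO and 754 against 476 CPM in WT. Gamt, which makes creatine, was at 194 against 127 CPM in KO and 87.8 against 58.1 CPM in WT. Scd1, a fatty acid desaturase, was at 29.3 against 101 CPM in KO and 31.1 against 74.4 CPM in WT. None of the 6 higher genes reached 2-fold in WT, where Mif had a ratio of 1.58 (1.53 to 1.64) and Mt1, a metallothionein, 1.73 (1.53 to 1.94).

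Among the WT members, the composition moved with the 5-gene sum, which is a description since the rule used it. Deep WT cells with a sum of 1 to 2% (31 cells) had 999 CPM of Myog, those with 2 to 4% (60 cells) 1182 CPM and those with 4% and over (23 cells) 1369.6 CPM. Ttn was at 4214, 5634 and 6479 CPM in these 3 steps, Myh8 at 644, 913 and 1389 CPM and Ckm at 195, 243 and 178 CPM. Cdkn1a was at 1138, 1176 and 1553 CPM. In KO, 49 of the 64 cells had a sum of 4% and over, and 4 a sum of 1 to 2%.

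The 4 deep KO cells were unlike each other. They had 24599, 27083, 25473 and 28141 UMIs with 12.5, 6.76, 8.75 and 0.203% mitochondrial UMIs, so the last resembles the shallow cells in this share. The one with 8.75% held 605 Spp1, 38 Areg, 165 Mgp and 75 Gsta4 UMIs. Without these 4 cells, Spp1 was at 47.3 CPM in the KO Myh1/4-low cells, against 1445 CPM with them. For the RNAs that name the class the 4 cells mattered less, Acta1 being at 24812 CPM without and 20997 CPM with them. Ttn was at 233 CPM without and 223 CPM with them, and Myh3 at 307 and 273 CPM.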

How the data were processed

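RNA of single cells was measured by 10x 3' tag sequencing in 1 MyoD-KO and 1 MyoD-WT library. The authors deposited unnormalised UMI counts, a matrix per library. Cell Ranger 7.2.0 wrote them, per the file headers. The submitters' processing notes also list GRCm39 and Seurat, with no role, and whether intronic reads were counted is not given in the sources used here. Cells were chosen by the rule stated above, and counts were summed per library and class and scaled to CPM. Levels carry exact Poisson intervals, shares exact Clopper-Pearson ones, and ratios an exact binomial interval for the split of the UMIs between both classes. All are at 95% and cover counting error only. Cells are not replicates, so there is no test and no p-value. A gene counted as higher or lower at 2-fold or more with at least 10 CPM in the higher class.

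The members, the 36 gene lists and the alternatives were chosen with earlier results of these data known. Genes are named if they belong to the rule, are muscle regulators, have the highest or lowest ratios of a comparison with at least 50 CPM (10 each way, 6 against Myh1/4-high cells), or are members of the lists described by role. Doublet scores came from Scrublet in scanpy 1.11.5 and TMM factors from edgeR 4.0.16, which made no test. Promoters come from RefSeq GRCm38.p6 and gene spans from GENCODE M21, also GRCm38, matched by symbol. Ratios were checked on simulated counts. Scripts ran in Python 3.11.15 (numpy 2.4.6, scipy 1.17.1, pandas 2.3.3) and R 4.3.3.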

Additional observations from a re-analysis of the deposited data

Results flagged for a closer look

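The direction of 16 named genes differed between the clones. Each was at least 2-fold lower in KO and at least 2-fold higher in WT Myh1/4-low cells than in the same library's Myog-positive cells. Over all genes 117 went this way. The difference between the libraries was not tested. The log2 ratios were -3.95 in KO and 1.17 in WT for Akap6, -3.23 in KO and 1.57 in WT for Fras1, -3.66 in KO and 1.95 in WT for Ankrd44 and -1.79 in KO and 1.57 in WT for Ncam1. They were -2.24 in KO and 1.36 in WT for Cacna2d1, -1.48 in KO and 3.42 in WT for Dmd, -2.07 in KO and 1.72 in WT for Fosl2 and -2.31 in KO and 1.82 in WT for Dlk1. For the next genes they were -1.38 in KO and 1.08 in WT for Itga7, -1.42 in KO and 1.502 in WT for Neb, -1.44 in KO and 1.21 in WT for Flnc and -2.27 in KO and 1.49 in WT for Atp2a2. The remaining ones were -1.10 in KO and 1.56 in WT for Cd81, -2.84 in KO and 1.15 in WT for Phka1, -2.96 in KO and 1.46 in WT for Foxo3 and -1.42 in KO and 1.38 in WT for Eda2r. In shallow WT cells set against all WT Myog-positive cells, all of the 16 but Fosl2 (0.65) and Eda2r (1.15) were below 0. Akap6 was at -2.67, Ncam1 at -2.01, Neb at -0.81 and Dmd at -0.26.

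Barcodes outside the filters held muscle RNA too. Of the removed barcodes, 16.5% in KO (311 of 1888) and 9.74% in WT (85 of 873) met the rest of the rule, and they enter no comparison above.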

How the results depend on the processing

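No result has replicates, so no alternative could leave one out. No paired analysis was possible because each genotype has 1 library and no test was made. Of 152 recomputed counts and shares, 94 stayed within 1.5 times the reported count or within the reported interval, and 58 did not. Of 2443 values of named genes, 1397 stayed within the counting interval of the reported ratio. Another 1011 left it with the same direction, and 35 changed direction.

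Setting the 5-gene cut at 0.5% gave 2915 lower genes against KO Myog-positive cells, 1366 lower in KO than in WT, 518 higher and 1373 lower against KO Myh1/4-high cells and a WT share of 2.75%, and a cut of 2% gave 97 higher genes in KO against Myh1/4-high cells and a WT share of 1.67%. Requiring no Myh1 or Myh4 UMI gave 64 higher and 633 lower genes in WT against Myh1/4-high cells and a WT share of 0.793%. Allowing up to 2 per 10000 gave 50 higher genes in KO and 20 lower in WT against Myh1/4-high cells and shares of 1.63% in KO and 4.18% in WT. Holding the Myog-positive cells to the Mki67 and Top2a cut gave 1395 lower genes in WT.

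With at least 20000 UMIs in every cell, KO against Myog-positive cells gave 1107 higher and 1948 lower genes, KO against WT 1738 and 1194, KO against Myh1/4-high cells 1281 and 1229, and WT against Myh1/4-high cells 30 higher, with shares of 0.0743% in KO and 1.64% in WT. With fewer than 20000 UMIs, a setting chosen after seeing the data, KO against Myog-positive cells gave 2817 lower genes, WT against Myog-positive cells 515 higher and 3936 lower, KO against WT 791 lower, KO against Myh1/4-high cells 1431 lower, and WT against Myh1/4-high cells 163 higher and 2608 lower, with shares of 15.04% in KO and 11.9% in WT. Thinning every cell to 5000 UMIs before the rule gave 36 higher and 115 lower genes in WT against Myh1/4-high cells and a WT share of 3.85%. Keeping all deposited barcodes gave shares of 4.89% in KO and 2.99% in WT.

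TMM scaling gave 1582 higher and 2794 lower genes in KO against Myog-positive cells and 574 higher against Myh1/4-high cells. A minimum of 50 CPM gave 315 higher and 1673 lower genes in KO and 390 and 844 in WT against Myog-positive cells, 360 and 803 in KO against WT, 40 and 818 in KO and 0 and 13 in WT against Myh1/4-high cells. With no minimum, WT against Myog-positive cells gave 1851 and 3475, KO against Myh1/4-high cells 269 higher, and WT against Myh1/4-high cells 455 and 539. Averaging over cells gave 9 and 83 in WT against Myh1/4-high cells.

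Against Myog-positive cells in KO, log2 ratios changed sign for Rbfox1 with all barcodes (-0.42), and for Dmd (0.035) and Pax7 (0.13) with the 5-gene cut at 0.5%. They changed for Dmd (2.61), Itga7 (0.20), Ncam1 (0.65) and Neb (0.45) with the Myh1 and Myh4 cut at 2 per 10000. They also changed for Fosl2 (0.58) and Nebl (0.073) with deep cells, and for Casq2 (-0.071), Ncam1 (0.43) and Neb (0.72) with shallow cells. With thinning first they changed for Akap6 (0.87), Dmd (1.81), Flnc (0.49), Itga7 (0.53), Ncam1 (0.43) and Neb (0.62). The KO value of Mki67 with restricted Myog-positive cells was 0.99, but the KO Myh1/4-low cells held 0 Mki67 UMIs. For the ratio 0 was set to 3 counts, so this value is no rise. Against Myog-positive cells in WT, Prc1 changed with restricted Myog-positive cells (0.38), and shallow cells changed Akap6 (-2.71), Atp2a2 (-1.08), Cacna2d1 (-2.52), Chrng (-0.23), Dmd (-2.75), Flnc (-0.59), Fosl2 (-0.79), Itga7 (-2.96), Musk (-0.64), Ncam1 (-2.52), Neb (-1.10), Rbfox1 (-2.79) and Ttn (-1.16). Myh1 in KO over WT changed with deep cells (0.38), and Myf6 in WT over Myh1/4-high cells with shallow cells (0.029). The cause was not tested. Depth limits the KO values more than the WT ones, since 10 CPM stand for 4.44 UMIs in KO and 46.6 UMIs in WT Myh1/4-low cells.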
